A study of Mus musculus with 20 samples.

Results

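Genes switched on by fibroblast growth factor (FGF) signalling through the kinase ERK, and the receptor Fgfr2, were followed in XY gonads of the mouse. The gonads were from embryonic day 11.5, the stage at which the gonad commits to becoming a testis. The members were chosen by name: Etv1, Etv4, Etv5, Dusp4, Dusp6, Spry1, Spry2, Spry4, Spred1 and Fgfr2. These 10 genes had 18 probes among the 41174 different gene probes of the array, which carried 27962 gene names in all. Of these probes, 16 (9 genes) were bright enough to test, out of 35038 tested. Both Spry4 probes were not well above background on any array, so no level or difference is given for Spry4.

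Each of the 20 arrays held Cy5-labelled RNA from 1 pair of gonads dissected free of the mesonephros, at 17 to 21 tail somites, without a dye swap. There were 5 arrays each for the inbred strains C57BL/6J and 129S1/SvImJ and for the hybrids (B6x129S1)F1 and (129S1xB6)F1, which result from crossing these strains in both directions. The labels do not say which strain was the mother in either cross, and they name no allele or agent other than these strain backgrounds for the gonads. The Cy3 channel of every array held 1 common pool from Sox9-ECFP(C57BL/6J) x CD-1 animals of the same age. It combined gonads (4 XY pairs, 3 XX pairs) with RNA of whole embryos (4 of them XY, 2 XX). The study compared the strains because C57BL/6J is sensitive to XY sex reversal, per the series title. Each array is a separate pair of gonads. The letter in the sample names recurs within a group (10 letters in all, 2 or 3 per group), and the labels do not say whether it marks a litter.

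FGF ligands bind receptor tyrosine kinases, which pass the signal through RAS, RAF and MEK to ERK. Active ERK turns on the PEA3 family of ETS transcription factors (Etv1, Etv4, Etv5) and a set of inhibitors that feed back on the pathway: the phosphatases Dusp4 and Dusp6, and the Sprouty and Spred proteins, which act upstream of ERK. The mRNA of these genes is widely read as a record of recent FGF-ERK activity, although other receptor tyrosine kinases use the same route. In the XY gonad, Fgf9 and its receptor Fgfr2 are known to be needed to keep Sox9 on and to form Sertoli cells.

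Values are log2 ratios of gonad over pool, so that 0 means the level of the pool and 1 means a 2-fold higher level. A level of one probe is never set against that of another. A difference was called when limma's moderated test, adjusted by Benjamini-Hochberg over all tested probes, gave an adjusted p under 0.05. Differences are given ± SE, and group means ± SD with n = 5 arrays. Per array, 77.92% to 87.95% of gene probes were well above background, and the median net Cy5 signal ran from 71.8 to 182. These medians averaged 79.42 on the slide that held only hybrids, the dimmest slide. On the slide that held only the inbred strains, the brightest, they averaged 161.8. Signal and group are thus partly confounded. Of the 11 probes of 6 somatic gonad markers, 9 had means above the pool, among them Wt1 (4.31), and the lowest of these was a probe of Nr5a1 (1.43). Both Cbx2 probes were not above it (-0.03 and -0.86). Lhx1, a gene of the mesonephric duct, was below the pool with both probes (-1.08 and -3.24). In whole gonads, fewer cells of a type and less RNA per cell cannot be told apart.

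Across the 16 member probes, none was called between the strains and 2 were called higher in the hybrids than in C57BL/6J. The strain comparison (C57BL/6J minus 129S1/SvImJ) called 5.47% of all probes (3.11% higher and 2.35% lower in C57BL/6J) and 0 of the 16 members. For 5.18% of all probes, and for 0 of the 16, the arrays of the strains did not overlap. Its median over the members was -0.04, with 6 of 16 above 0, against a median of 0.00 and 50.6% above 0 over all probes. Without adjustment, 4 of 16 member probes had p under 0.05, against 15.1% of all probes. In the comparison of both hybrids together with C57BL/6J, 1.91% of all probes were called (1.01% higher and 0.893% lower in the hybrids), and among the members Etv4 and 1 of 2 Dusp4 probes were called higher. There, 13 of 16 member probes lay above 0 with a median of 0.23, against 51.4% above 0 and a median of 0.01 over all probes, and 8 of 16 had an unadjusted p under 0.05, against 11.6% of all probes. Against 129S1/SvImJ the hybrids gave 0 called members (1.54% of all probes were called, 0.945% higher and 0.596% lower, and 1.08% had no overlap), 12 of 16 above 0, a median of 0.10 and 2 of 16 with an unadjusted p under 0.05 (12.4% of all probes). Both hybrid comparisons use the same 10 hybrid arrays, so their values are set side by side and are not independent. The plot of differences with their intervals shows each probe in turn.

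**Figure D1:**
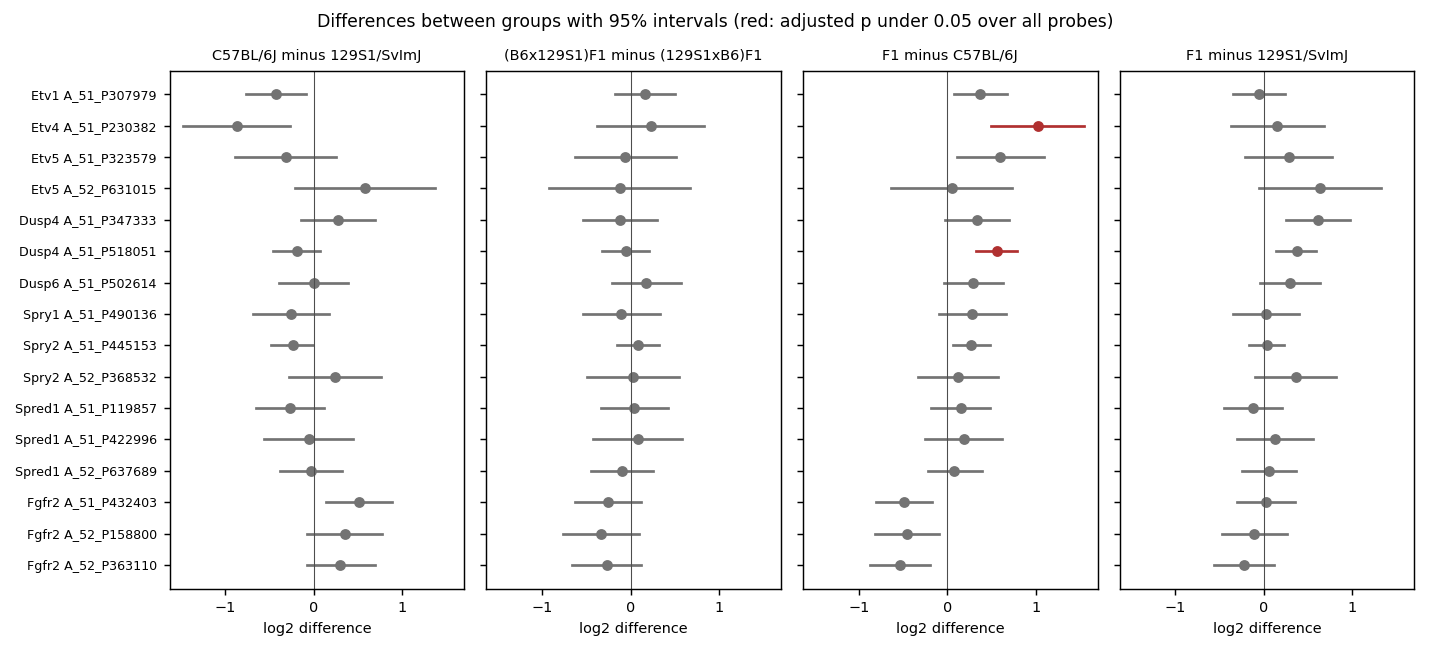
Log2 difference (x axis) of each tested member probe (y axis) for 4 comparisons, as points with 95% intervals from the limma fit; red marks an adjusted p under 0.05 over all 35038 probes. The red points are Etv4 (1.03) and Dusp4 A_51_P518051 (0.56) in F1 minus C57BL/6J, and the 3 Fgfr2 probes of that panel lie to the left of 0 (-0.45 to -0.53).

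Etv4, an ETS factor whose transcription follows FGF signalling closely in many embryonic tissues, was low in C57BL/6J. It was read by a single probe, A_51_P230382, shown here because this gene has the largest difference of the set:
Etv4 A_51_P230382: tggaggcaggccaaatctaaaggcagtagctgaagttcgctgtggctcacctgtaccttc

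The Etv4 log2 ratios of the C57BL/6J pairs were 0.71, -0.02, -0.05, -0.45 and -0.02 for H1, H2, H3, H4 and K2. In 129S1/SvImJ they were 0.62, 1.51, 1.12, 1.22 and 0.04 for A3, A4, A6, D4 and G3. In (B6x129S1)F1 they were 1.06, 0.88, 1.27, 1.36 and 1.29 for C2, C3, C4, E1 and F2. Etv4 was thus just below 0 or lower in 4 of the 5 C57BL/6J pairs and above 0 in every pair of this cross. In (129S1xB6)F1 the values were 1.46, 1.25, -0.06, 0.66 and 1.42 for L1, L2, L4, M3 and M6, and L4 fell inside the C57BL/6J range.

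The group means of Etv4 followed the order (B6x129S1)F1 at 1.17 ± 0.20, (129S1xB6)F1 at 0.95 ± 0.65, 129S1/SvImJ at 0.90 ± 0.58 and C57BL/6J at 0.03 ± 0.42. The first 3 differed by less than the spread between their arrays. The hybrids exceeded C57BL/6J by 1.03 ± 0.25, which is 2.04-fold (adjusted p = 0.036). C57BL/6J minus 129S1/SvImJ was -0.87 ± 0.29, which was not called (adjusted p = 0.098). Within the 3 slides that held all 4 groups, the hybrids minus C57BL/6J came to 0.64, 1.08 and 1.72, and the strain difference was negative on all 4 slides that held both strains (-1.53 to -0.50).

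The Etv4 call sat close to the threshold. With the slide as a block the difference was 1.05 and was no longer called (adjusted p = 0.15), nor was it with the letter of the sample name as a random block (1.04, adjusted p = 0.16). Leaving out any one of L1, L2, M6, C4, E1, F2, H2, H3, H4 and K2 also ended the call, with adjusted p between 0.058 and 0.10. Over all 15 fits that left out 1 array, the difference stayed between 0.90 and 1.20. The strain difference in Etv4 stayed uncalled with the slide as a block (-0.87, adjusted p = 0.12) and with the letter as a random block (-0.85, adjusted p = 0.27). It was called without G3 (-1.09, adjusted p = 0.024), without H1 (-1.04, adjusted p = 0.047) and with arrays weighted by their quality (-1.06, adjusted p = 0.023). Leaving out any other single array did not make it called, with the weakest value without A4 (-0.72, adjusted p = 0.25).

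Etv1, the second PEA3 factor, was also lowest in C57BL/6J, with smaller differences. Its single probe, A_51_P307979, gave -0.76, -0.85, -0.75, -0.98 and -0.68 in the C57BL/6J pairs H1, H2, H3, H4 and K2. The 129S1/SvImJ pairs ranged from -0.75 to 0.00 (median -0.39), the (B6x129S1)F1 pairs from -0.77 to -0.08 (median -0.24) and the (129S1xB6)F1 pairs from -0.91 to -0.01 (median -0.56). The C57BL/6J pairs were tightly grouped, with an SD of 0.12, at the low end of a range that the other groups shared. C57BL/6J minus 129S1/SvImJ was -0.43 ± 0.16 (adjusted p = 0.17) and the hybrids minus C57BL/6J was 0.37 ± 0.14 (adjusted p = 0.26), neither of them called. With the slide as a block, the hybrid difference in Etv1 was 0.65 and passed the threshold (adjusted p = 0.021).

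Etv5, the third PEA3 factor and one known in the testis for its part in the Sertoli cell niche of spermatogonial stem cells, was read by 2 probes that did not give the same picture, which is why both are shown:
Etv5 A_51_P323579: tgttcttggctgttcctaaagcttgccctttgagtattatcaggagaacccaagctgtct
Etv5 A_52_P631015: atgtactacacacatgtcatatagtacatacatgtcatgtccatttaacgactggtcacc

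With A_51_P323579, C57BL/6J was lowest at 0.61 ± 0.26, followed by 129S1/SvImJ at 0.93 ± 0.50, (B6x129S1)F1 at 1.18 ± 0.49 and (129S1xB6)F1 at 1.23 ± 0.54. The hybrids minus C57BL/6J was 0.60 ± 0.24 (adjusted p = 0.28). With A_52_P631015, 129S1/SvImJ was lowest at 1.47 ± 0.87 and C57BL/6J, at 2.05 ± 0.74, stood beside the hybrids at 2.04 ± 0.39 and 2.16 ± 0.49. The hybrids minus C57BL/6J was then 0.05 ± 0.33 (adjusted p = 0.98), and -0.20 with the slide as a block. Neither probe was called, and their deviations from the group means correlated at r = 0.39 over the 20 arrays (permutation p = 0.10 within groups, rho = 0.29, p = 0.26).

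**Figure D2:**
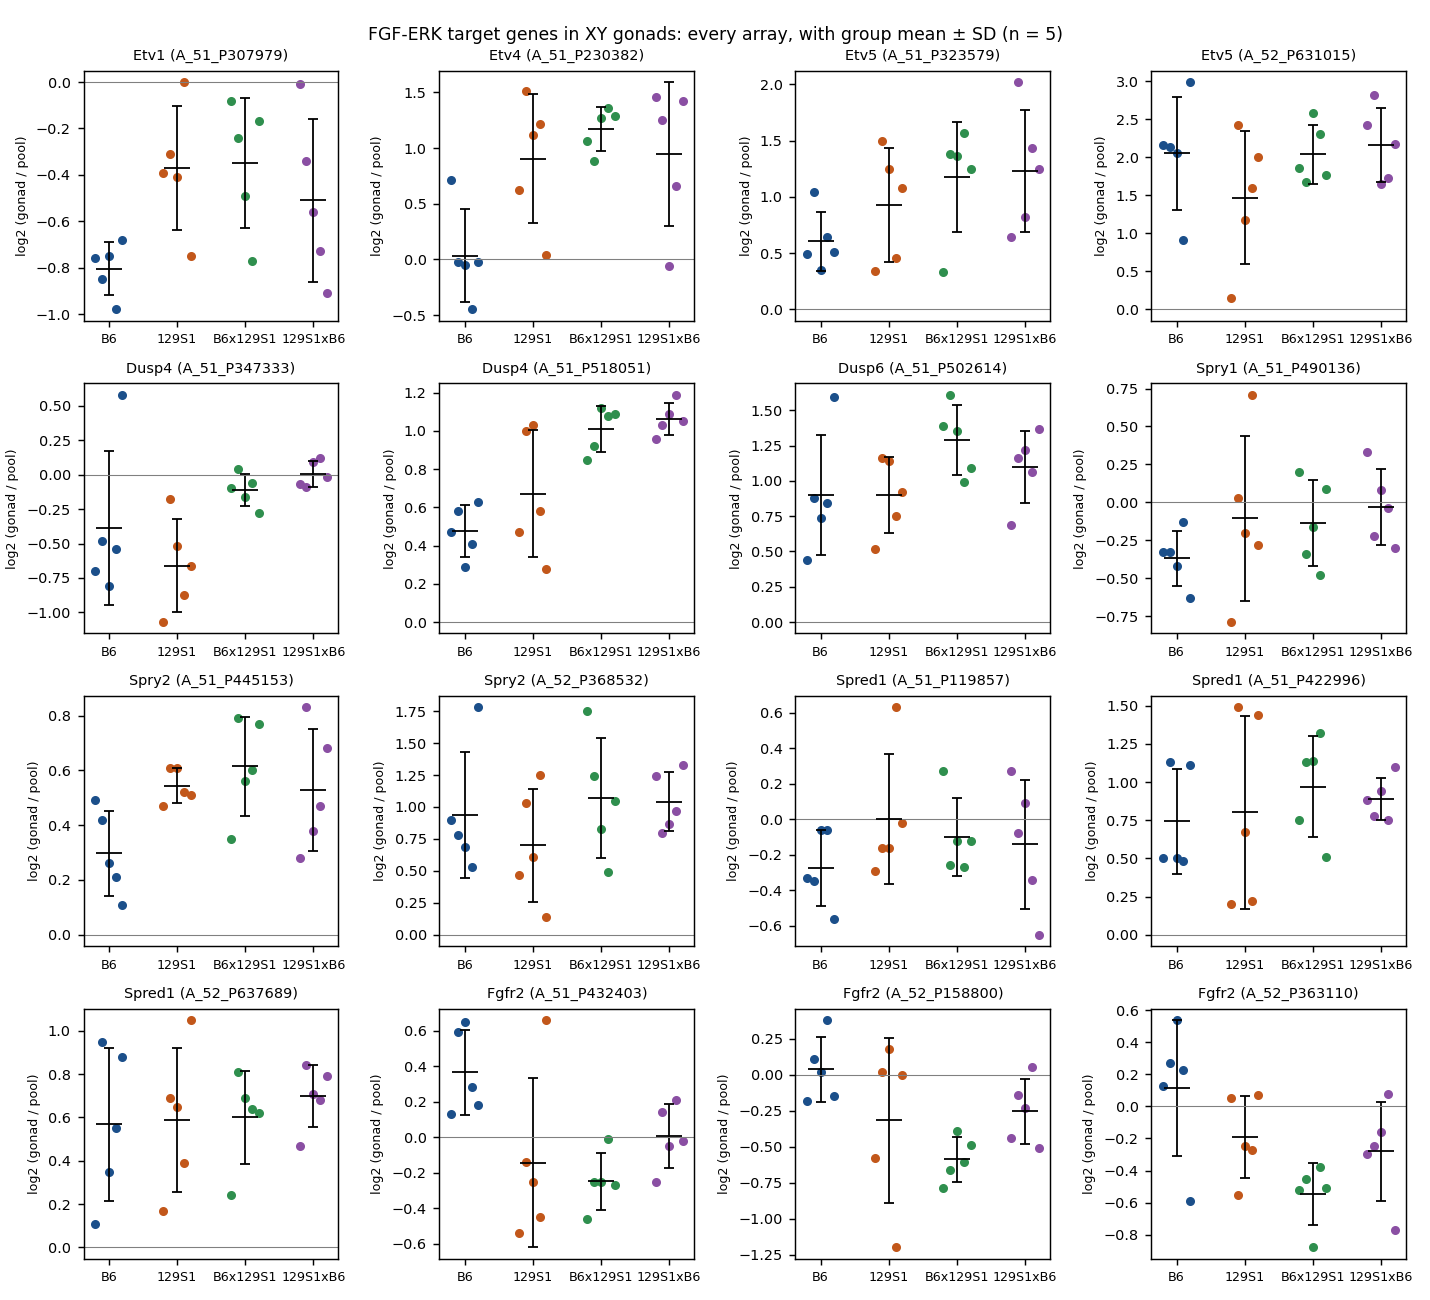
Log2 ratio of gonad over pool (y axis) on every array for the 16 tested probes, by group (x axis, 5 arrays each); bars give the group mean ± SD. In the Etv4 panel 4 of the 5 C57BL/6J points lie at or below 0, and in the Dusp4 A_51_P518051 panel all 10 hybrid points (0.85 to 1.19) lie above all C57BL/6J points (0.29 to 0.63).

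Dusp4, a nuclear phosphatase that inactivates ERK, was higher in the hybrids than in C57BL/6J and than the mean of the strains. The difference was clearest with 1 of its 2 probes, A_51_P518051, the only member probe with a called F test over the 4 groups (adjusted p = 0.016, against 3.56% of all probes called). Both probes are shown because they carry the hybrid difference to unequal degrees:
Dusp4 A_51_P518051: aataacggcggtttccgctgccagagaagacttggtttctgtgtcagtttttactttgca
Dusp4 A_51_P347333: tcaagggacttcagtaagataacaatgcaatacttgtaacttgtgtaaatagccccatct

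With A_51_P518051, the C57BL/6J pairs H1, H2, H3, H4 and K2 gave 0.47, 0.58, 0.29, 0.41 and 0.63. The (B6x129S1)F1 pairs C2, C3, C4, E1 and F2 gave 0.85, 0.92, 1.12, 1.08 and 1.09. The (129S1xB6)F1 pairs L1, L2, L4, M3 and M6 gave 0.96, 1.03, 1.09, 1.19 and 1.05. No hybrid array overlapped the C57BL/6J arrays, and this was the only 1 of the 16 member probes without overlap there (1.3% of all probes had none). The 129S1/SvImJ pairs A3, A4, A6, D4 and G3 gave 0.47, 1.00, 1.03, 0.58 and 0.28, a wide range that touched both the C57BL/6J and the hybrid values.

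The hybrids exceeded C57BL/6J by 0.56 ± 0.11 with this probe, a 1.47-fold difference (adjusted p = 0.0065). They exceeded the mid-parent value by 0.46 ± 0.09, which is 1.38-fold (adjusted p = 0.027), where 0.24% of all probes were called (0.231% higher in the hybrids and 0.00856% lower). Against 129S1/SvImJ alone the difference was 0.37 ± 0.11 and was not called (adjusted p = 0.12). The strains did not differ beyond their spread (-0.19 ± 0.13, adjusted p = 0.54). Dusp4 was the only member called away from the mid-parent, and 13 of the 16 member probes lay above 0 in that comparison (median 0.16, against 0.00 and 51.2% over all probes). Germ cell markers were above 0 in the same comparison with all 11 probes (median 0.45, 9 with an unadjusted p under 0.05), and Ddx4 (1.20 ± 0.24, adjusted p = 0.034) and Sox2 (1.00 ± 0.17, adjusted p = 0.011) were called higher. Pre-Sertoli markers had a median of 0.45 with 9 of 10 probes above 0, none called and 5 with an unadjusted p under 0.05. The part of these cells in the Dusp4 difference was not tested.

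The slide changed the call for this probe. The hybrids minus C57BL/6J for A_51_P518051 was 0.51, 0.34 and 0.50 within the 3 slides that held all groups, and 0.43 with the slide as a block (adjusted p = 0.053). The mid-parent difference with the slide as a block was 0.34 (adjusted p = 0.35), and 0.48 with the letter as a random block (adjusted p = 0.088). The call against C57BL/6J was kept in all 15 fits that left out 1 array (0.51 to 0.60). The mid-parent call was lost on leaving out any one of L4, M3, M6, C4, E1, F2, A3, D4, H3 and H4, at values of 0.44 to 0.47 and adjusted p of 0.052 to 0.069. Against 129S1/SvImJ, this probe was called without A4 (0.45, adjusted p = 0.049), without A6 (0.46, adjusted p = 0.034) and under normexp background correction with loess (0.41, adjusted p = 0.034).

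The second Dusp4 probe, A_51_P347333, is annotated to a different transcript record from the first, and whether both read the same transcript was not tested. It had 1 C57BL/6J pair apart from the rest. The C57BL/6J pairs gave -0.70, -0.48, -0.81 and -0.54 for H1 to H4 and 0.58 for K2. The 129S1/SvImJ pairs A3, A4, A6, D4 and G3 gave -1.07, -0.18, -0.52, -0.87 and -0.66. The hybrids lay close together, from -0.28 to 0.04 for the (B6x129S1)F1 and from -0.09 to 0.12 for the reciprocal cross. K2 lay above every hybrid pair and A4 lay among the hybrid values, so the hybrids were not separate from either strain with this probe.

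With all arrays, A_51_P347333 was called in none of the comparisons: the hybrids differed from C57BL/6J by 0.34 ± 0.17 (adjusted p = 0.48), from 129S1/SvImJ by 0.61 ± 0.17 (adjusted p = 0.098) and from the mid-parent by 0.47 ± 0.14 (adjusted p = 0.29). Without K2, the difference was 0.58 against C57BL/6J (adjusted p = 0.014) and 0.59 against the mid-parent (adjusted p = 0.0061). Without A4, the difference from 129S1/SvImJ was 0.73 (adjusted p = 0.049), and in a fit of only the groups compared it was called at 0.61 (adjusted p = 0.014). Within-slide values of the hybrids minus C57BL/6J were 0.39, -0.60 and 0.45, where the negative one came from the slide with K2. K2 is also the only C57BL/6J array with its letter, H being that of the other 4. It was the lowest C57BL/6J array for 4 of the 16 member probes and the highest for 6. Those 6 included Dusp6 (1.59, the others 0.44 to 0.88) and Spry2 A_52_P368532 (1.78, the others 0.53 to 0.90). How often K2 was highest or lowest over all probes was not counted.

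**Figure D3:**
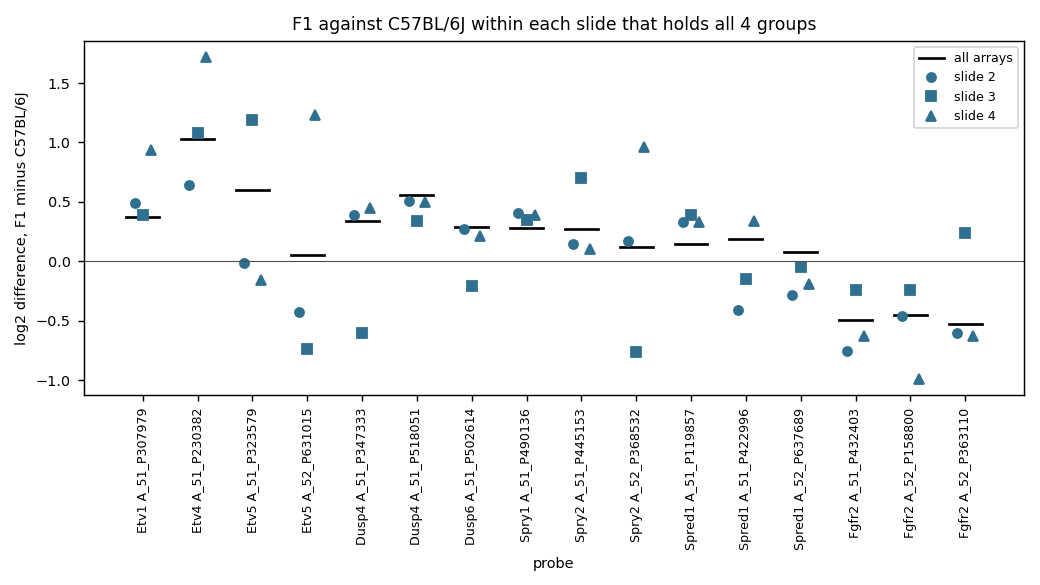
F1 minus C57BL/6J (y axis, log2 difference) for each tested probe (x axis) within the 3 slides that held all 4 groups (points) and in the fit over all arrays (black line). The Etv4 (0.64 to 1.72), Etv1 (0.39 to 0.94) and Dusp4 A_51_P518051 (0.34 to 0.51) points lie above 0 on every slide, whereas those of Dusp4 A_51_P347333 run from -0.60 to 0.45.

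Dusp6, the cytoplasmic ERK phosphatase often used as a direct readout of FGF-ERK signalling, had the brightest member probe, A_51_P502614, without a saturated spot. It was above the pool on all 20 arrays. The C57BL/6J pairs averaged 0.90 ± 0.42 and the 129S1/SvImJ pairs 0.90 ± 0.27, while (B6x129S1)F1 averaged 1.28 ± 0.25 and (129S1xB6)F1 averaged 1.10 ± 0.25. The strains were at the same level (difference 0.00 ± 0.19, 95% interval -0.39 to 0.39), and the hybrids minus either strain was 0.29 ± 0.16, which was not called (adjusted p = 0.52 against C57BL/6J and 0.48 against 129S1/SvImJ).

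The Sprouty and Spred inhibitors showed no called difference in any comparison. Spry1, a membrane-anchored inhibitor of receptor tyrosine kinase signalling, averaged -0.37 ± 0.18 in C57BL/6J and -0.11 ± 0.55 in 129S1/SvImJ. Its hybrid means were -0.14 ± 0.28 for (B6x129S1)F1 and -0.03 ± 0.25 for (129S1xB6)F1. The hybrids minus C57BL/6J was 0.28 ± 0.18 (adjusted p = 0.61). Spry2 was read by 2 probes, which are shown because they ordered the strains in opposite ways:
Spry2 A_51_P445153: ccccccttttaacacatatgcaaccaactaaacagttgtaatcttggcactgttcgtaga
Spry2 A_52_P368532: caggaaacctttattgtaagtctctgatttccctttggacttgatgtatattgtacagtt

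With Spry2 A_51_P445153, C57BL/6J (0.30 ± 0.16) was below 129S1/SvImJ (0.54 ± 0.06) and the hybrids (0.61 ± 0.18 and 0.53 ± 0.23). The strain difference was -0.24 ± 0.11 (adjusted p = 0.29) and the hybrids minus C57BL/6J was 0.27 ± 0.10 (adjusted p = 0.20). With A_52_P368532 the strain difference was 0.24 ± 0.25 (adjusted p = 0.78), and the C57BL/6J mean of 0.94 ± 0.49 included K2 at 1.78. The sign of the strain difference in Spry2 therefore depended on the probe, and neither value was called. These probes are annotated to different transcript records, and whether both read the same transcript was not tested.

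Spred1, an inhibitor that recruits neurofibromin to RAS, was read by 3 probes. Differences between hybrids and C57BL/6J were 0.15 ± 0.16, 0.19 ± 0.21 and 0.08 ± 0.15, and strain differences were -0.27 ± 0.18, -0.06 ± 0.24 and -0.03 ± 0.17 (A_51_P119857, A_51_P422996 and A_52_P637689 in both cases). The lowest adjusted p among these 6 values was 0.56. With the slide as a block, the hybrids minus C57BL/6J turned to -0.19 for A_51_P422996 and -0.17 for A_52_P637689. A_51_P119857 is set apart from the other Spred1 probes in how it varied between embryos, as described with the correlations.

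Fgfr2, the receptor for Fgf9 in the XY gonad and the only receptor among the members, had the opposite sign to Etv4, with the C57BL/6J mean highest for all 3 of its probes. The probes are shown because 3 different sequences gave differences of similar size:
Fgfr2 A_51_P432403: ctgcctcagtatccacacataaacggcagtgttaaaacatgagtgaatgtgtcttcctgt
Fgfr2 A_52_P158800: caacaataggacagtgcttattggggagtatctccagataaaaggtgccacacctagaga
Fgfr2 A_52_P363110: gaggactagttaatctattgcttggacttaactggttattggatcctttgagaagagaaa

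With A_51_P432403, the mean of 10 spots per array, the C57BL/6J pairs H1, H2, H3, H4 and K2 gave 0.13, 0.59, 0.65, 0.28 and 0.18. The 129S1/SvImJ pairs A3, A4, A6, D4 and G3 gave -0.54, -0.14, -0.25, -0.45 and 0.66. The (B6x129S1)F1 pairs ranged from -0.46 to -0.01, and the reciprocal pairs from -0.25 to 0.21. All C57BL/6J values were above 0, and only G3 among the 129S1/SvImJ pairs was. The strain difference was 0.51 ± 0.18 (adjusted p = 0.12), which was called without G3 (0.71, adjusted p = 0.0022) and with arrays weighted by quality (0.59, adjusted p = 0.023).

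The hybrids minus C57BL/6J was -0.49 ± 0.15 for A_51_P432403 (adjusted p = 0.13), -0.45 ± 0.18 for A_52_P158800 (adjusted p = 0.27) and -0.53 ± 0.16 for A_52_P363110 (adjusted p = 0.11). None was called with all arrays at equal weight. A_52_P363110 was called without K2 (-0.70, adjusted p = 0.0097) and with arrays weighted by quality (-0.65, adjusted p = 0.01). A_51_P432403 was called with weighted arrays (-0.57, adjusted p = 0.016) and in a fit of only the groups compared (-0.49, adjusted p = 0.026). A_52_P158800 was dim, being well above background on 18 of the 20 arrays. Within slides, the first 2 of these probes were lower in the hybrids on all 3 slides, and A_52_P363110 on 2 of 3. This last probe is annotated to a different transcript record from the other Fgfr2 probes.

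No member was called between the directions of the cross. The comparison of (B6x129S1)F1 with (129S1xB6)F1 called 0.00571% of all probes (2 probes) and 0 of the 16 members, none of which had an unadjusted p under 0.05 (3.34% of all probes did). Member differences ran from -0.33 to 0.23. The largest in size was that of Fgfr2 A_52_P158800 (-0.33 ± 0.20, 95% interval -0.76 to 0.09), and all 3 Fgfr2 probes were lower in (B6x129S1)F1 (-0.25, -0.33 and -0.27). For Etv4 the interval of the cross difference was -0.38 to 0.83 and for Dusp4 A_51_P518051 it was -0.32 to 0.21, neither of which contains the size of that probe's difference from C57BL/6J (1.03 and 0.56).

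The rest of the pathway was examined through lists of genes by role. Of 22 genes of the FGF family, Fgf11 to Fgf14 included, 21 were on the array and 18 could be tested with 29 probes. None was called in any of the 5 comparisons (13 of 145 tests had an unadjusted p under 0.05 in limma). Fgf9, the ligand required in the XY gonad, stood above the pool (mean 1.47 ± 0.66, SD over 20 arrays). Its differences were -0.07 ± 0.37 between the strains (adjusted p = 0.98) and 0.59 ± 0.32 for the hybrids minus C57BL/6J (adjusted p = 0.51). The smallest unadjusted p of the family in the latter comparison was that of Fgf7 (0.65 ± 0.19, adjusted p = 0.10), a ligand made by mesenchyme. The Fgf7 probe was well above background on 8 of 20 arrays. Of 6 other FGF receptors and co-receptors tested with 13 probes, none was called either (1 of 65 tests with an unadjusted p under 0.05). The smallest p between the strains belonged to Klb, a co-receptor for endocrine FGFs (0.45 ± 0.22, adjusted p = 0.36).

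Of 20 genes that carry the signal from RAS to ERK, all were tested, with 39 probes, and 1 was called between the strains. Nf1, the GTPase-activating protein neurofibromin, was lower in C57BL/6J with 1 of 3 probes, A_52_P636523 (-0.70 ± 0.20, adjusted p = 0.044). Its other probes gave -0.03 ± 0.18 and -0.36 ± 0.34 and were not called. Why probes of 1 gene gave unlike values was not tested. In the hybrids minus C57BL/6J no probe of the list was called, and 0 of 39 had an unadjusted p under 0.05 in limma. The hybrids minus 129S1/SvImJ was -0.66 ± 0.17 for Nf1 A_52_P636523, which was not called (adjusted p = 0.067). The medians of the 39 probes were near 0 (-0.05 between the strains and 0.03 for the hybrids minus C57BL/6J).

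Of 21 other ERK-responsive and feedback genes, 19 were tested with 30 probes. Ccnd1, the cyclin that drives entry into S phase, was the only one called: C57BL/6J exceeded 129S1/SvImJ by 0.41 ± 0.12 (adjusted p = 0.046). In the hybrids minus C57BL/6J none of the 19 was called and the median was 0.04, with 18 of 30 probes above 0 and 2 with an unadjusted p under 0.05. The smallest p there was that of the immediate early phosphatase Dusp1 (0.24 ± 0.10, adjusted p = 0.34).

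**Figure D4:**
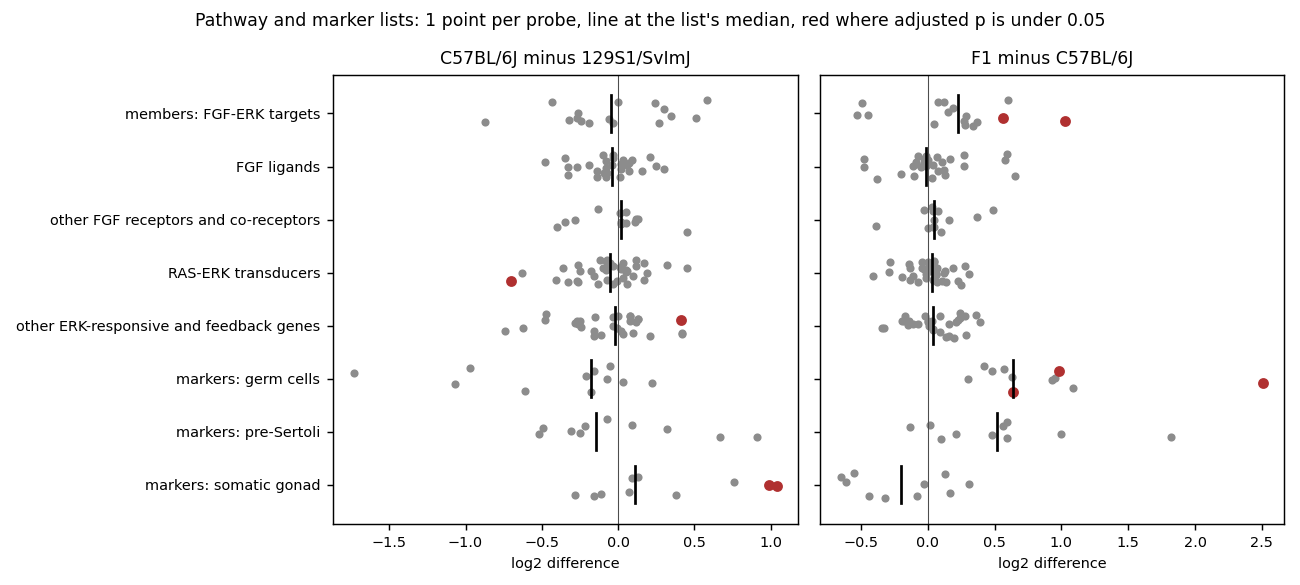
Log2 difference (x axis) of every tested probe in 8 gene lists (y axis) between the strains (left) and between the hybrids and C57BL/6J (right), with the list's median as a black line and called probes in red. In the right panel the medians are 0.23 for the FGF-ERK targets with Fgfr2 and -0.01 for the FGF family genes (labelled FGF ligands). They are 0.03 for the RAS-ERK transducers and 0.64 for the germ cell markers.

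Markers of other cells moved in the same comparison as Etv4 and Dusp4. All 11 probes of the 10 germ cell markers were above 0 in the hybrids minus C57BL/6J (median 0.64), all 11 with an unadjusted p under 0.05, and Dazl (2.51 ± 0.47 with 1 of its 2 probes, adjusted p = 0.0046), Sox2 (0.98 ± 0.21, adjusted p = 0.014) and Tfap2c (0.64 ± 0.16, adjusted p = 0.037) were called higher. The mean over the germ cell list ran from 0.77 to 1.42 over the C57BL/6J pairs and from 1.28 to 1.59 over the 129S1/SvImJ pairs. It ran from 1.57 to 2.14 over the (B6x129S1)F1 and from 1.75 to 2.06 over the (129S1xB6)F1 pairs. The hybrid and C57BL/6J ranges of that mean did not overlap. All 11 probes of the list were well above background on every array. Pre-Sertoli markers had a median of 0.52 in this comparison with 9 of 10 probes above 0 and none called (3 with an unadjusted p under 0.05), and list means of 0.81 to 1.58 in C57BL/6J against 0.83 to 1.86 and 1.48 to 2.18 in (129S1xB6)F1 and (B6x129S1)F1.

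Lhx1, of the duct list, was higher in the hybrids with 1 of 2 probes (0.55 ± 0.12, adjusted p = 0.016), while the 8 duct genes as a list had a median of -0.06 and list means that overlapped between all groups (-0.21 to 0.21). Endothelial (8 genes, median -0.01) and erythroid (7 genes, median -0.10) markers had no called probe in it (1 of 14 and 0 of 9 with an unadjusted p under 0.05). Somatic gonad markers had a median of -0.20 in the hybrids minus C57BL/6J, with 3 of 10 probes above 0, none called and 5 with an unadjusted p under 0.05. Among them were both Emx2 probes (-0.65 ± 0.21 and -0.55 ± 0.18, adjusted p = 0.13 for each). The mean over that list ran from 2.19 to 2.75 in C57BL/6J, from 1.90 to 2.36 in (B6x129S1)F1 and from 2.17 to 2.41 in (129S1xB6)F1, so that these ranges overlapped. The part of germ cell, pre-Sertoli, duct or somatic gonad content in the Etv4, Dusp4 and Fgfr2 differences was not tested. In the strain comparison, Emx2 was higher in C57BL/6J with both probes (1.04 ± 0.24, adjusted p = 0.011, and 0.99 ± 0.20, adjusted p = 0.0042). Lhx1 was called lower in C57BL/6J there, the only called gene of the duct list (smallest unadjusted p = 0.00029 in limma).

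The members did not vary together as a block between embryos of the same group. For each of the 9 tested genes the brightest probe was taken, each group's mean was removed, and all 36 pairs were correlated over the 20 arrays with a two-sided permutation test within groups (100000 permutations, p adjusted over the 36 pairs). Of these, 19 pairs were positive and 2 passed an adjusted p of 0.05. Spry1 and Spred1 correlated at r = 0.81 (adjusted p = 0.0014; rho = 0.76, adjusted p = 0.014; r = 0.72 without the 2 arrays farthest from the median of Spry1). Dusp4 and Dusp6, the phosphatases, correlated at r = 0.80 (adjusted p = 0.011; rho = 0.75, adjusted p = 0.014; r = 0.65 without the 2 arrays farthest from the median of Dusp4).

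Both correlations have limits that can be seen in the data. With the slide also removed, Spry1 with Spred1 stayed at r = 0.81 (adjusted p = 0.049), whereas Dusp4 with Dusp6 came to r = 0.55 (adjusted p = 0.063). Within single slides there are only 4 arrays, too few for a value. Each correlation also held for 1 probe only: Spry1 correlated with the other Spred1 probes at r = -0.26 and -0.22, and Dusp6 with the other Dusp4 probe, A_51_P518051, at r = 0.37.

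The Spred1 probe that followed Spry1 did not follow the other Spred1 probes. It is annotated to a different transcript record from those probes, and whether all read the same transcript was not tested. A_51_P119857 correlated with A_51_P422996 at r = -0.39 (permutation p = 0.14; rho = -0.29, p = 0.24) and with A_52_P637689 at r = -0.37 (permutation p = 0.14; rho = -0.33, p = 0.17), while these latter probes correlated with each other at r = 0.73 (permutation p = 0.0029; rho = 0.78, p = 0.00098; adjusted over 9 pairs of same-gene probes, 0.027 and 0.0088). The 3 sequences are shown because these readings of 1 gene part ways:
Spred1 A_51_P119857: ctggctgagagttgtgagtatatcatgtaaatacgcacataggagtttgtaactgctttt
Spred1 A_51_P422996: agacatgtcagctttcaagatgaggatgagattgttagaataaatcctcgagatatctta
Spred1 A_52_P637689: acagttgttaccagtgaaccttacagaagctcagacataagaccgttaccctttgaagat

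Among the other same-gene pairs, the Dusp4 probes correlated at r = 0.52 (permutation p = 0.039, adjusted p = 0.18), the Fgfr2 probes at r = 0.17 to 0.52 and the Spry2 probes at r = -0.26. The Spred1 pair was the only 1 of the 9 with an adjusted p under 0.05. Fgfr2 A_52_P363110 was negatively correlated with Dusp4 (r = -0.64), Spry2 (r = -0.63), Dusp6 (r = -0.61) and Etv5 (r = -0.52), with adjusted p of 0.15, 0.083, 0.13 and 0.18. Without the 2 arrays farthest from the median of the first gene these were r = -0.18, -0.55, -0.46 and -0.53, and rho over all 20 arrays was -0.28, -0.65, -0.44 and -0.51 (adjusted p = 0.53, 0.055, 0.27 and 0.23). The value for Dusp4 thus rested on those 2 arrays. With the slide also removed, Spry2 and Fgfr2 had r = -0.73 (adjusted p = 0.036). For the other Fgfr2 probes, A_51_P432403 and A_52_P158800, the correlation with the brightest Dusp4 probe was 0.01 and 0.20. With Dusp6 it was 0.09 and 0.21, with the brightest Etv5 probe 0.31 and 0.01, and with the brightest Spry2 probe -0.56 and -0.52. The other Spry2 probe, A_51_P445153, had r = 0.21, 0.14 and 0.01 with A_51_P432403, A_52_P158800 and A_52_P363110. For A_52_P363110, r was -0.09 with the other Etv5 probe and -0.46 with the other Dusp4 probe. Etv1 and the brightest Spry2 probe correlated at r = 0.59 (adjusted p = 0.053; rho = 0.60, adjusted p = 0.058; r = 0.54 without the 2 farthest arrays), which with the slide removed was 0.66 (adjusted p = 0.037). This too held for 1 Spry2 probe only, since Etv1 and A_51_P445153 had r = -0.18.

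**Figure D5:**
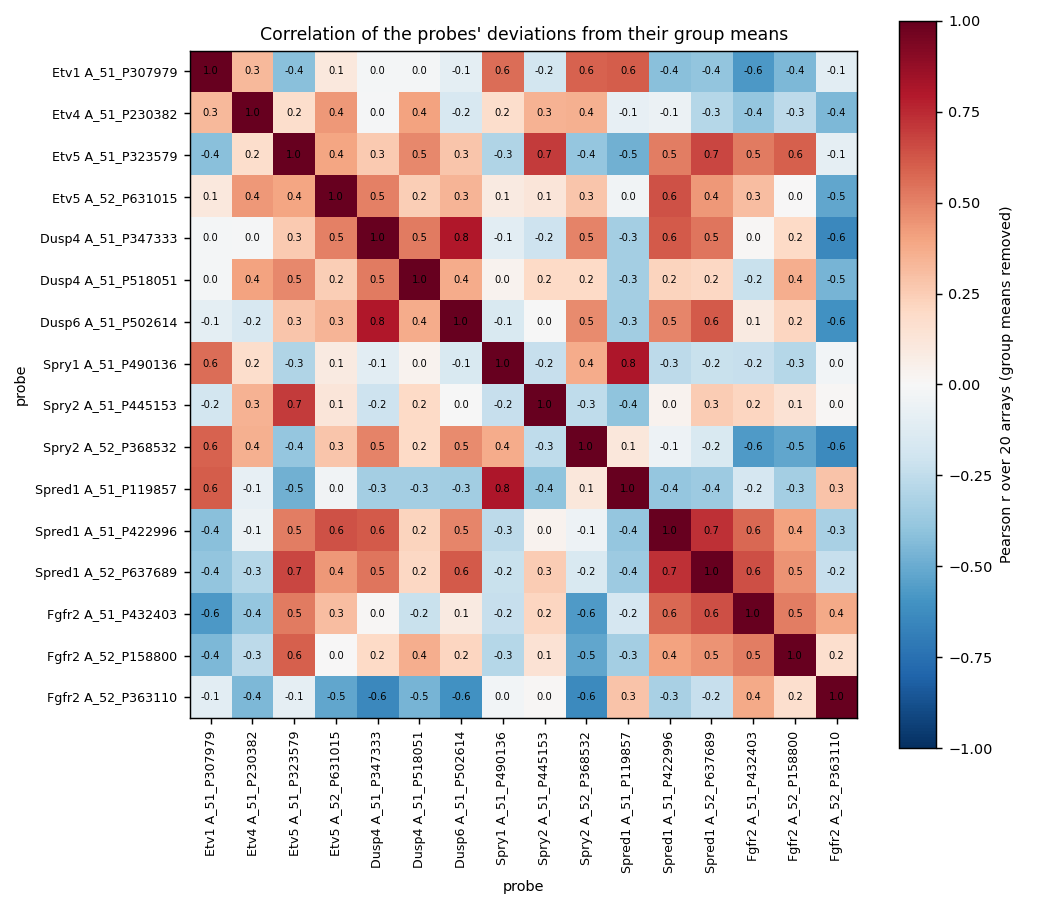
Pearson r between the deviations of the 16 tested probes from their group means over 20 arrays, with probes on both axes and r as colour and number. The squares for Spry1 with Spred1 A_51_P119857 (0.81) and Dusp4 A_51_P347333 with Dusp6 (0.80) are the reddest between genes, and those of A_51_P119857 with the other Spred1 probes are blue (-0.39 and -0.37).

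Each member also has a gene whose pattern over all 20 arrays was most like its own by Pearson r, group differences included. For Etv4 this was Ckb, the brain-type creatine kinase (r = 0.91), for Dusp4 Abcg1, a sterol exporter (r = 0.93), for Dusp6 Cycs, cytochrome c (r = 0.94), and for Spry2 Exosc6, an exosome subunit (r = 0.91). Those of Spred1, Etv1, Spry1, Etv5 and Fgfr2 were Cfl1 (r = 0.90), Grb14 (r = 0.89), Tpcn1 (r = 0.86), Tnfrsf21 (r = 0.85) and Arhgef19 (r = 0.84). None of these 9 is a gene of the pathway lists. Each was picked as the highest of all probes, and arrays share slides and labelling, so the r values are descriptions only.

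Against the reference pool, which is part gonad and part whole embryo, 9 of the 16 tested probes had a mean above 0 in the XY gonad, and so did 4 of the 9 genes when each was read by its brightest probe. Dusp6, Dusp4 A_51_P518051, both Etv5 probes, both Spry2 probes and 2 of 3 Spred1 probes were above 0 on all 20 arrays, with means of 0.50 to 1.93. The other Dusp4 probe, A_51_P347333 (-0.29 ± 0.41), and the third Spred1 probe, A_51_P119857 (-0.13 ± 0.29), were each above 0 on 4 arrays. Etv4 was above 0 on 15 arrays, with 4 of the 5 below it in C57BL/6J. Etv1 was at or below 0 on all 20 (mean -0.51 ± 0.31, SD). Spry1 (-0.16 ± 0.34) and Fgfr2 (-0.28 to 0.00) were near the pool's level. With no dye swap, a dye effect of a probe would be the same on every array: it enters these ratios to the pool but cancels in the differences between groups.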

How the data were processed

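Gonad RNA (Cy5) and the common pool (Cy3) were hybridised to 20 Agilent arrays. The values used were spot intensity per channel after background subtraction, spatial detrending and dye normalization, per the file headers of Agilent Feature Extraction 9.1.3.1. The authors' deposited matrix of log2 ratios was used only as an alternative. Its columns and the ratios used here had r = 0.935 to 0.96, and its column medians were 0.001 to 0.042. How it was made is not given in the sources used here, and its direction, gonad over pool, was read from these correlations.

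The log2 ratio of Cy5 over Cy3 was taken per spot, without control and outlier spots (at most 22 per array), and averaged over spots of 1 probe. Genes were named as in the files. A probe was tested if its Cy5 signal was well above background on 4 or more arrays of any group. Under R 4.3.3, with data.table version 1.17.8 for reading tables, limma 3.58.1 fitted the 4 groups over all 20 arrays, with 16 residual and 3.3 prior degrees of freedom. Within-array centring was left as deposited; centring on the median was an alternative. Slides (5) came from the files: 3 held all groups, 1 only the strains and 1 only the hybrids. The number of arrays limits the precision. In the main fit, p is set against the spread between gonad pairs of a group, treated as independent. That spread also holds differences between slides and between letters. The fit was tested on simulated data. Every member and probe is given; from other lists, genes called in a comparison or with the smallest p are named. The members and lists were chosen with earlier results of these data known. A gene of the RAS to ERK list is not reported here, and that list's counts and medians leave it out.

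Alternatives were normexp correction (offset 50) with loess, the authors' deposited log2 matrix, centring, other filters, 1 probe per gene, slide or letter blocks (letter correlation 0.157), array weights, only the groups compared, and leaving out each array.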

Additional observations from a re-analysis of the deposited data

Results flagged for a closer look

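A test for a single array apart from the other 4 of its group was run on 64 sets (16 probes in 4 groups), of which 4 had such an array, where chance alone gives about 5%. For Dusp4 A_51_P347333, the C57BL/6J array K2 was at 0.58 and the others at -0.81 to -0.48. For Etv5 A_51_P323579, the (B6x129S1)F1 array C2 was at 0.33 and the others at 1.25 to 1.57. For Fgfr2 A_52_P363110, the (B6x129S1)F1 array C4 was at -0.88 and the others at -0.52 to -0.38. For Spred1 A_51_P119857, C2 was at 0.27 and the others at -0.27 to -0.12.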

How the results depend on the processing

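The counts of called probes (1915 between strains, 2 between crosses, and 668, 540 and 84 for the hybrids against C57BL/6J, 129S1/SvImJ and mid-parent, 1249 in the F test) changed by over 1.5 times in these cases. With the slide as a block, the 3 hybrid counts were 445, 305 and 31. With the letter as a random block, the strain count was 1222, the hybrid counts were 355, 341 and 38, and the F test gave 720. With array weights, the count against C57BL/6J was 1421. Between crosses, 0 were called under normexp with loess and 1 with probes well above background on all 20 arrays. Leaving out 1 array at a time gave 1513 to 1930 between strains, 2 to 5 between crosses (5 without E1), 461 to 779 against C57BL/6J, 348 to 605 against 129S1/SvImJ (348 without A3), 51 to 117 against mid-parent (54 without M6, 51 without C4) and 933 to 1277 in the F test. With the slide removed, 5 rather than 2 of the 36 pairs of members passed. These were Spry1 with Spred1, Etv1 with Spry2, Spry2 with Fgfr2 (negative), and Dusp4 and Dusp6 each with Spry2. The last pairs had r = 0.71 and 0.65 with the brightest Spry2 probe (permutation test, adjusted p = 0.037 for each). The causes were not tested.

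For the members, 23 differences (those with an unadjusted p under 0.05, and the hybrid and cross differences of Dusp4) kept their sign under every alternative, and the report gives each change of call. The 57 other member differences turned sign in 26 of 532 refits and 57 of 775 fits without 1 array, all of them 0.28 or smaller in size in the reported fit, and none of the 57 was called under any alternative.

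With the slide as a block, the hybrids minus 129S1/SvImJ turned to 0.22 for Etv1, -0.09 for Etv5 A_51_P323579, -0.15 for Fgfr2 A_51_P432403, and 0.11, -0.25 and -0.19 for Spred1 A_51_P119857, A_51_P422996 and A_52_P637689. The hybrids minus C57BL/6J turned to -0.20 for Etv5 A_52_P631015 and to -0.19 and -0.17 for Spred1 A_51_P422996 and A_52_P637689, whose differences from mid-parent turned to -0.22 and -0.18. With array weights, the hybrids minus 129S1/SvImJ turned to -0.04 for Etv4, -0.05 for Spred1 A_51_P422996 and -0.04 for Spry1, the strain difference of Dusp4 A_51_P347333 to 0.00 and the cross difference of Spred1 A_51_P119857 to -0.02. With the letter as a random block, Spred1 A_51_P119857 turned to 0.00 against mid-parent, Spry1 to -0.02 against 129S1/SvImJ, the strain difference of Dusp6 to 0.07, the cross difference of Spry2 A_52_P368532 to -0.01 and Etv5 A_52_P631015 to -0.04 against C57BL/6J. Under normexp with loess, the strain differences of Spred1 A_51_P422996 and Dusp6 turned to 0.04 and 0.04, the cross difference of Spred1 A_51_P422996 to -0.01 and Fgfr2 A_51_P432403 against 129S1/SvImJ to -0.02. In the deposited table of log2 ratios the strain difference of Dusp6 turned to 0.02.

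Leaving out 1 array at a time gave ranges across 0 for 21 differences. Against 129S1/SvImJ these were -0.20 to 0.03, -0.02 to 0.30 and -0.05 to 0.17 for Spred1 A_51_P119857, A_51_P422996 and A_52_P637689, -0.06 to 0.31 for Etv4, -0.15 to 0.04 for Etv1, -0.08 to 0.22 and -0.33 to 0.02 for Fgfr2 A_51_P432403 and A_52_P158800, -0.01 to 0.06 for Spry2 A_51_P445153 and -0.15 to 0.23 for Spry1. Against C57BL/6J they were -0.24 to 0.28 for Etv5 A_52_P631015 and -0.03 to 0.18 for Spred1 A_52_P637689, and against mid-parent -0.04 to 0.09 for Spred1 A_51_P119857. Between strains they were -0.21 to 0.11 and -0.13 to 0.09 for Spred1 A_51_P422996 and A_52_P637689 and -0.18 to 0.11 for Dusp6. Between crosses they were -0.08 to 0.14 and -0.01 to 0.20 for Spred1 A_51_P119857 and A_51_P422996, -0.03 to 0.36 for Etv4, -0.20 to 0.15 and -0.26 to 0.04 for Etv5 A_51_P323579 and A_52_P631015, and -0.14 to 0.17 for Spry2 A_52_P368532. The causes of these changes of sign were not tested.

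No paired analysis was possible because the numbers in the sample names belong to letters that no other group shares and recur within a group (C2 and F2), so they match no arrays across groups. Arrays that share a slide were matched by the slide block above. Dim probes (Spry4, Fgfr2 A_52_P158800) limit what can be read.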

Other observations

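The hybrid arrays of a group lay closer together than the inbred ones for most members. The SD within groups, pooled over both crosses, was below that pooled over both strains for 13 of 16 member probes, with a median ratio of 0.682. Over all 35038 tested probes it was lower in the hybrids for 58.7%, with a median ratio of 0.914. Both Dusp4 probes had the smallest ratios: 0.11 in the hybrids against 0.46 in the strains for A_51_P347333 and 0.10 against 0.25 for A_51_P518051. In Etv1 the SD was larger in the hybrids (0.32 against 0.21), as it was for Spry2 A_51_P445153 (0.20 against 0.12) and Etv5 A_51_P323579 (0.52 against 0.40). The inbred groups lie partly on a slide without hybrids and the hybrid groups partly on one without inbred pairs, and the part of the slide in these spreads was not tested.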
